A study of Mus musculus with 12 samples.

Results

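Messenger RNA of 9 genes of the PARP family and of DTX3L, the binding partner of PARP9, was measured by RNA sequencing in CT26 cells, a mouse colon carcinoma line. The 10 genes were chosen by their symbols, with earlier results of these data known. Counts of calls among them therefore describe these genes and are not an independent test of the family. All 10 were found among the 23636 symbols of the table. They passed the filter on low values, which asked for an average of 0.2 TPM or more. TPM are read counts scaled by gene length and then to a fixed total. The 4 groups were cells with no treatment (No treatment), cells treated with the chemokine CX3CL1 at 2 µg/ml, cells treated with the cytokine IFN-γ at 100 ng/ml, and cells treated with both (CX3CL1+IFN-γ), each for 8 hours with 3 biological replicates. The doses and the time come from a figure legend of the study, and its text also speaks of TNF-α and of CX3CL1 given afterwards, while the labels name only CX3CL1 and IFN-γ, so the order of addition and the absence of TNF-α are not settled here. All libraries came from the same cultured line, so each group stands for 1 tumor line grown outside the animal, and the comparisons ask how the tumor cells themselves respond to the ligand of CX3CR1 alone and beside IFN-γ.

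PARP enzymes move ADP-ribose from NAD+ onto proteins and nucleic acids. PARP1 and PARP2 bind broken DNA and build chains of poly(ADP-ribose) that draw in repair proteins such as XRCC1, while PARP3 adds single ADP-ribose units and acts in the repair of double-strand breaks. Most of the other members add single ADP-ribose units or have lost catalytic activity, and several are known as interferon-stimulated genes with antiviral roles. In the following, PARP1, PARP2 and PARP3 are called the repair genes, and PARP9, DTX3L, PARP14, PARP10, PARP11, PARP12 and ZC3HAV1 the interferon-linked genes. GAS elements are bound by transcription factors that IFN-γ activates, and ISRE elements by those of the wider interferon response.

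Promoter windows of the repair and interferon-linked genes were searched for 4 short motifs on both strands, because the interferon-linked genes moved together in the data below. The motifs were the GAS element TTCNNNGAA, the ISRE core GAAANNGAAA, the NF-kB consensus and the GC box GGGCGG. RefSeq windows on GRCm38.p6, from 250 bases before to 50 bases after a start site, were found for 7 of the 10 genes, which leaves PARP9, PARP10 and PARP14 without one. The first of the 2 PARP11 windows was the only window of these genes with a GAS or an ISRE match. Its ISRE match lay 44 to 35 bases before the start, and its GAS match lay 37 to 29 bases before the start, so the matches shared their bordering bases. A GAS match was present in 8.3% of all 32851 windows and an ISRE match in 3.44%. ZC3HAV1 had the only NF-kB match, 100 to 91 bases before the start, and 8.46% of all windows held one. PARP1 had 4 GC boxes, 3 of them before the start, PARP2 had 1 and the second PARP11 window had 1, against 35.7% of all windows with at least 1. No match of the 4 motifs was found in the windows of DTX3L, PARP12 and PARP3, which says only that these letters were not in those windows. The 250 bases before the start are shown for the window with the interferon motifs, the one with the NF-kB match and the one with the most GC boxes, 5′ to 3′ in the direction of the gene and with the motif matches in capitals.
PARP11 (chr6:127446590-127446839, plus strand): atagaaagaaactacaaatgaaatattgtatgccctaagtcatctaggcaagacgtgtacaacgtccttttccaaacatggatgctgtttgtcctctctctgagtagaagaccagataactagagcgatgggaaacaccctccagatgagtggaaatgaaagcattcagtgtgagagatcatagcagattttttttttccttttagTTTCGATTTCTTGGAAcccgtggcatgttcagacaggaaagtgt
ZC3HAV1 (chr6:38354604-38354853, minus strand): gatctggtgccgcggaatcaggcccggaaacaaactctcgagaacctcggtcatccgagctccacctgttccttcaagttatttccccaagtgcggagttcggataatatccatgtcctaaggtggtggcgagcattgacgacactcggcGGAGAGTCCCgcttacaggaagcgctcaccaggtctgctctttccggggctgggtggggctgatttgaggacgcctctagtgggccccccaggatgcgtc
PARP1 (chr1:180568641-180568890, plus strand): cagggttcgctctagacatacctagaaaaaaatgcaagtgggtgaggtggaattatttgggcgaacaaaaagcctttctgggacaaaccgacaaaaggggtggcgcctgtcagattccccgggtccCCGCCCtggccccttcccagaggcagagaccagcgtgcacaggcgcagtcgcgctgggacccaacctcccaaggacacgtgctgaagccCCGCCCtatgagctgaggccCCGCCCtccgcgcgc
The capitals of PARP11 run from the ISRE match into the GAS match, those of ZC3HAV1 are the NF-kB match, and each of the 3 runs of capitals of PARP1 is a GC box read on the opposite strand.

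On GRCm38, 3 of the interferon-linked genes lie close together on chromosome 16. PARP14 spans 35832874 to 35871544 on the minus strand, DTX3L 35926511 to 35939151 on the minus strand and PARP9 35938470 to 35972605 on the plus strand. DTX3L and PARP9 therefore overlap head to head by 682 bases, with 458 bases in exons of both, out of 5725 exon bases of DTX3L and 4872 of PARP9. The library kit marks the strand, but the strand setting of the counting is not given in the sources used here, so how reads from the shared bases were divided is uncertain. ZC3HAV1 (38305286 to 38354603, minus strand), PARP12 (39086410 to 39118349, minus strand) and PARP11 (127446840 to 127494261, plus strand) are on chromosome 6. PARP10 lies on chromosome 15 from 76231174 to 76243441, on the minus strand, and shares 205 of its 4275 exon bases with Plec on the same strand. The repair genes lie apart, with PARP1 on chromosome 1 from 180568924 to 180601254, PARP2 on chromosome 14 from 50807841 to 50821301 and PARP3 on chromosome 9 from 106470322 to 106476949.

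The labelled line was checked against its markers. Each of the 12 libraries sums to 1000000 TPM, and 10613 to 10824 symbols reached 1 TPM in a library. TPM carry no read depth, so precision is given here only by the spread between replicates. Of 8 epithelial markers, 6 stayed below 1 TPM in every library and EPCAM, which marks most colon carcinomas, was listed at 0 in all of them, while KRT18 and KRT20 were present. All 6 mesenchymal markers reached at least 1 TPM. Of 8 leukocyte markers, 6 stayed below 1 TPM in every library, PTPRC (CD45) among them, CD3E was listed at 0, and the summed level of the list was 8.99 to 17.6 TPM with No treatment, 8.28 to 22.0 TPM with CX3CL1, 9.57 to 20.3 TPM with IFN-γ and 10.2 to 27.5 TPM with CX3CL1+IFN-γ, most of it from CD68. CX3CL1 replicate 2 was the library least alike the others of its group, since its genes differed from theirs by a median of 0.266 and 0.262 on the log2 scale, against 0.141 between those.

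In untreated cells PARP1 and PARP2 were among the more abundant members. PARP1 had 131 ± 12.8 TPM (SD, n = 3), more than any other member, followed by ZC3HAV1 with 64.2 ± 4.76 TPM (SD, n = 3) and PARP2 with 51.1 ± 4.68 TPM (SD, n = 3), and the ranges of these 3 genes did not overlap. PARP12, at 32.9 ± 4.15 TPM (SD, n = 3), was below PARP2 in every library. From PARP12 down through PARP3, PARP9, PARP10, DTX3L and PARP11, each gene's range overlapped that of the next, so their order is not settled by these libraries. PARP14 was the lowest, at 7.27 ± 2.42 TPM (SD, n = 3), and did not overlap PARP11 above it.

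The order changed with treatment. With CX3CL1, PARP12 had 118 ± 23.7 TPM (SD, n = 3) and PARP1 118 ± 4.73 TPM (SD, n = 3), with overlapping ranges. With IFN-γ, PARP12 was the highest member at 214 ± 50.7 TPM (SD, n = 3), above every library of ZC3HAV1 at 121 ± 15.4 TPM (SD, n = 3). With CX3CL1+IFN-γ, PARP12 reached 242 ± 63.7 TPM (SD, n = 3). PARP2 and PARP3 were the lowest in both groups with IFN-γ. Below ZC3HAV1, all neighbours in the order overlapped in the groups with IFN-γ.

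**Figure D1:**
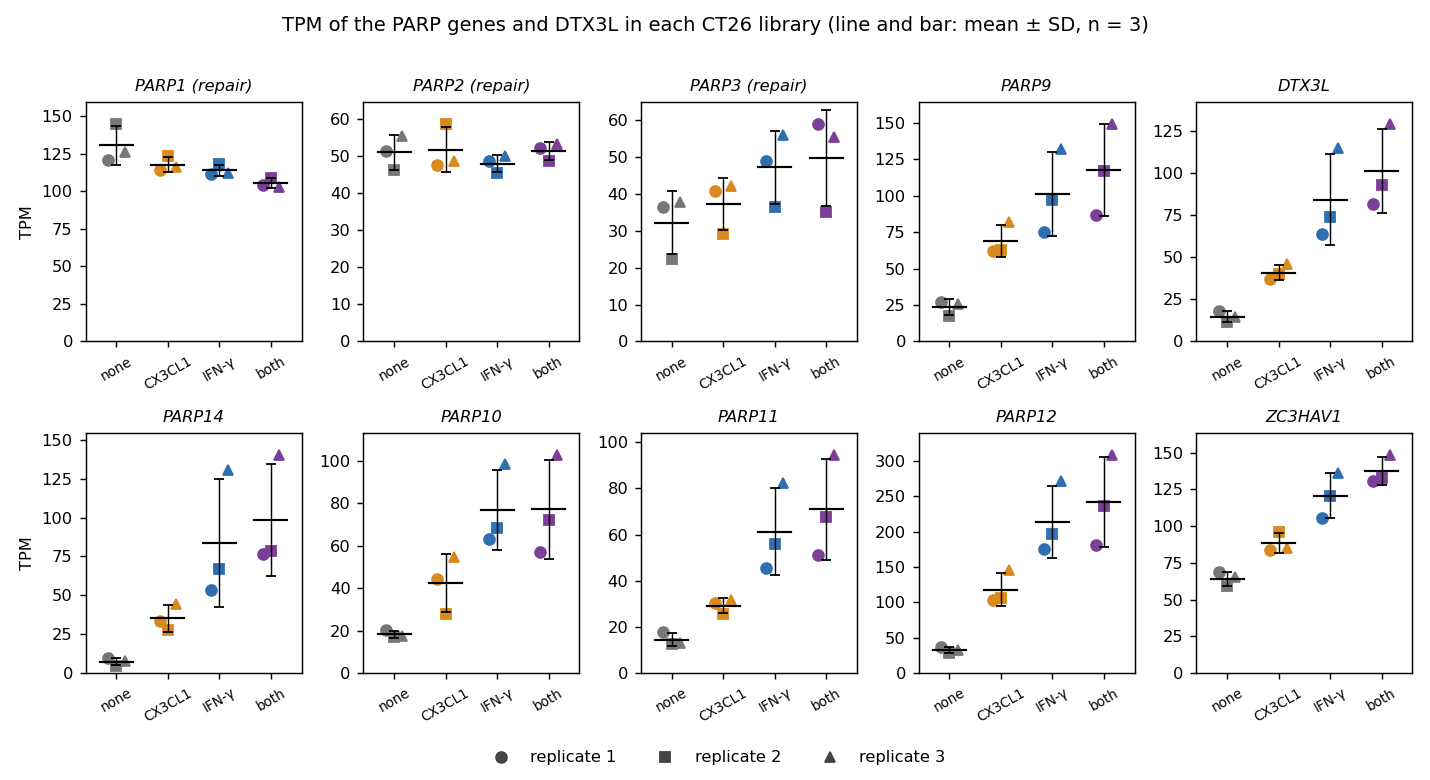
TPM (vertical axis, each panel from 0) of the 10 genes in the 4 groups (horizontal axis), 1 point per library with the replicate number as its shape, and the mean ± SD of 3 replicates in black. The 7 interferon-linked genes stand above every untreated library in all 9 treated libraries, PARP1 is highest in the untreated cells and PARP2 shows no separation of the groups.

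Summed over the 7 interferon-linked genes, the level was 151 to 198 TPM in untreated cells, 386 to 489 TPM with CX3CL1, 582 to 967 TPM with IFN-γ and 665 to 1073 TPM with CX3CL1+IFN-γ. The sum over the 3 repair genes stayed between 193 and 219 TPM in all 12 libraries. Within this sum the genes did not move alike. From untreated cells to CX3CL1+IFN-γ, mean PARP1 went from 131 to 105 TPM and mean PARP3 from 32.2 to 49.8 TPM. Mean PARP2 was 51.1 and 51.4 TPM. The interferon-linked genes thus made up 44.9 ± 3.67% (SD, n = 3) of the summed TPM of the 10 genes in untreated cells, 67.0 ± 2.93% (SD, n = 3) with CX3CL1, 77.5 ± 4.02% (SD, n = 3) with IFN-γ and 79.9 ± 4.05% (SD, n = 3) with both. The untreated and CX3CL1 groups did not overlap in this share, nor did CX3CL1 and either group with IFN-γ, while the IFN-γ and CX3CL1+IFN-γ groups did.

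With CX3CL1 alone, 5 of the 10 genes were called higher than in untreated cells and none lower: PARP14, PARP12, PARP9, DTX3L and PARP10. A call is an adjusted p under 0.05 (limma, Benjamini-Hochberg over 11878 genes), and 1.78% of all genes tested were called higher and 0.168% lower in this comparison. All 7 interferon-linked genes were higher in every CX3CL1 library than in every untreated library, which held for 5.5% of the genes tested. The median log2 fold change of the 7 was 1.43, that of the 3 repair genes 0.02 and that of all genes tested -0.02. Fold changes are given with their standard error (SE), are differences of log2(TPM + 1) and are therefore too small for genes with low TPM. In bulk RNA, a larger share of responding cells and more RNA per cell cannot be told apart.

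PARP14, a large macrodomain-containing transferase known from STAT signaling, was at 9.34, 4.61 and 7.87 TPM in the untreated replicates 1, 2 and 3, and at 33.1, 27.6 and 44.5 TPM with CX3CL1. The groups were far apart, and the mean rose 4.82-fold. The log2 fold change of PARP14 was 2.14 (± 0.34 SE, adjusted p = 0.00329 by limma), rank 34 of the 11878 genes tested. PARP12, a zinc finger transferase found at the Golgi and in stress granules, was at 37.1, 28.8 and 32.8 TPM without treatment and at 103, 106 and 145 TPM with CX3CL1. Its log2 fold change was 1.80 (± 0.21 SE, adjusted p = 0.000506 by limma), the smallest adjusted p of the 10 genes in this comparison.

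PARP9 and DTX3L form a heterodimer in which DTX3L is the ubiquitin ligase. PARP9 was at 27.3, 17.2 and 25.8 TPM without treatment and at 62.1, 62.8 and 81.9 TPM with CX3CL1, a log2 fold change of 1.53 (± 0.24 SE, adjusted p = 0.00327 by limma). DTX3L was at 18.1, 11.6 and 14.4 TPM without treatment and at 37.3, 39.8 and 45.8 TPM with CX3CL1, a log2 fold change of 1.43 (± 0.22 SE, adjusted p = 0.00329 by limma). Both partners thus separated the groups, by 2.94-fold and 2.78-fold in the means. PARP14, PARP12, PARP9 and DTX3L kept their calls in all 14 alternatives, which include 6 fits that each left out 1 library.

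PARP10, a transferase with RNA-binding and ubiquitin-interacting motifs, was at 20.2, 17.2 and 17.2 TPM without treatment and at 44.2, 27.7 and 54.9 TPM with CX3CL1. All treated libraries were higher, but CX3CL1 replicate 2 was much nearer to the untreated cells than the other treated libraries. The log2 fold change of PARP10 was 1.12 (± 0.25 SE, adjusted p = 0.0395 by limma), and the call was lost in 7 of 14 alternatives. Without CX3CL1 replicate 1 it was 1.06 (adjusted p = 0.144 by limma) and without CX3CL1 replicate 3 it was 0.91 (adjusted p = 0.188 by limma). The adjusted p was 0.0697, 0.159 and 0.178 (limma) without untreated replicate 1, 2 and 3.

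PARP11 and ZC3HAV1 did not pass the threshold with CX3CL1 alone. PARP11, a WWE domain transferase found at the nuclear envelope, was at 17.7, 12.6 and 13.0 TPM without treatment and at 30.4, 25.5 and 31.7 TPM with CX3CL1, with a log2 fold change of 0.98 (95% interval 0.47 to 1.49, adjusted p = 0.0575 by limma). It passed the threshold in 4 of 14 alternatives, among them a pseudocount of 0.1 (adjusted p = 0.0433 by limma), a fit of only the libraries compared (0.0168) and the fit without untreated replicate 1 (log2 fold change 1.12, adjusted p = 0.0479). ZC3HAV1, the zinc finger antiviral protein ZAP (PARP13), which binds CpG-rich viral RNA and has no transferase activity, was at 68.5, 59.1 and 65.0 TPM without treatment and at 83.9, 96.1 and 84.8 TPM with CX3CL1. Its log2 fold change was 0.45 (95% interval 0.22 to 0.69, adjusted p = 0.0585 by limma).

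None of the repair genes was called with CX3CL1 alone. PARP1 was at 121, 145 and 126 TPM without treatment and at 114, 123 and 116 TPM with CX3CL1, with a log2 fold change of -0.14 (95% interval -0.33 to 0.05, adjusted p = 0.882 by limma). PARP2 had a log2 fold change of 0.02 (95% interval -0.21 to 0.24) and PARP3 one of 0.22 (95% interval -0.31 to 0.75). The groups overlapped for all 3 genes.

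With IFN-γ, all 7 interferon-linked genes were called higher than in untreated cells, where 5.91% of all genes tested were called higher and 1.94% lower. All 7 were higher in every IFN-γ library than in every untreated library, which held for 20.6% of the genes tested, and they kept their calls in all 14 alternatives. Their median log2 fold change was 2.06, that of the repair genes -0.08 and that of all genes tested 0.03. This comparison and the one with CX3CL1 share the untreated libraries, so they are not independent.

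PARP14 showed the largest change of the 10 genes, with 53.7, 66.6 and 131 TPM with IFN-γ. Replicate 3 was the highest by far, and even the lowest was far above the highest untreated library. Its mean rose 11.5-fold and its log2 fold change was 3.30 (± 0.34 SE, adjusted p = 3.67e-05 by limma). PARP12 was at 175, 196 and 271 TPM, a log2 fold change of 2.65 (± 0.21 SE, adjusted p = 6.62e-06 by limma). DTX3L was at 63.7, 74.1 and 115 TPM, a log2 fold change of 2.42 (± 0.22 SE, adjusted p = 1.67e-05 by limma). PARP9 was at 75.1, 96.7 and 132 TPM, and its log2 fold change was 2.06 (± 0.24 SE, adjusted p = 0.000106 by limma).

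The other 3 interferon-linked genes also rose. PARP10 was at 63.4, 68.4 and 98.5 TPM with IFN-γ, with a log2 fold change of 1.99 (± 0.25 SE). PARP11 was at 45.6, 56.1 and 82.2 TPM, also with a log2 fold change of 1.99 (± 0.23 SE). The first of its 2 windows held the GAS and ISRE matches shown above and the second held neither. A link of these matches to the rise was not tested. ZC3HAV1 was at 106, 120.4 and 136 TPM, with a log2 fold change of 0.90 (± 0.11 SE), the smallest of the 7. Replicate 3 was the highest IFN-γ library for all 7 genes and replicate 1 the lowest.

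The repair genes were not called with IFN-γ. PARP3 was at 36.4, 22.4 and 37.8 TPM without treatment and at 49.0, 36.5 and 56.0 TPM with IFN-γ, so the groups overlapped, and its log2 fold change was 0.55 (± 0.24 SE, adjusted p = 0.208 by limma). Replicate 2 was the lowest library of its group for PARP3 in all 4 groups, and within the replicate numbers 1, 2 and 3 the log2 difference between IFN-γ and untreated cells was 0.42, 0.68 and 0.56. With the replicate number as a block, PARP3 was called higher (adjusted p = 0.00136 by limma), as were 11.4% of all genes tested. PARP1 was at 112, 118 and 112 TPM with IFN-γ, below every untreated library, as were 13.7% of the genes tested, with a log2 fold change of -0.19 (95% interval -0.38 to -0.00, adjusted p = 0.223 by limma). PARP2 had a log2 fold change of -0.08 (95% interval -0.31 to 0.14).

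**Figure D2:**
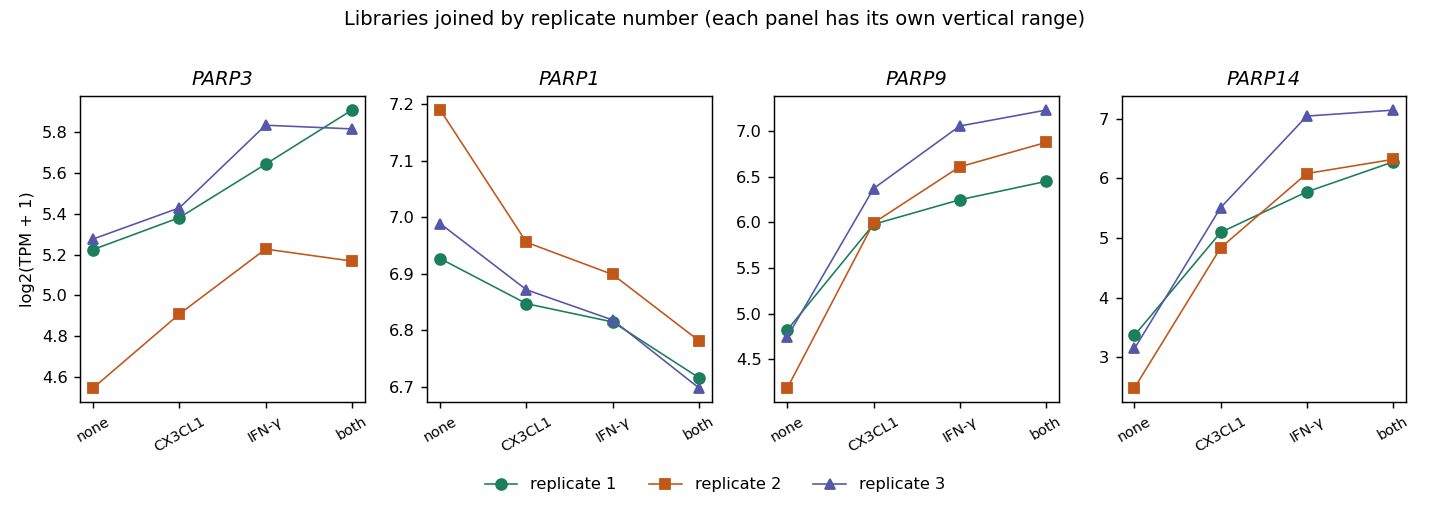
Log2(TPM + 1) (vertical axis, a separate range per panel) of PARP3, PARP1, PARP9 and PARP14 in the 4 groups (horizontal axis), with libraries of the same replicate number joined by lines. For PARP3, replicate 2 is the lowest library of every group, while for PARP9 replicate 1 is the highest untreated library and the lowest IFN-γ library.

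**Figure D3:**
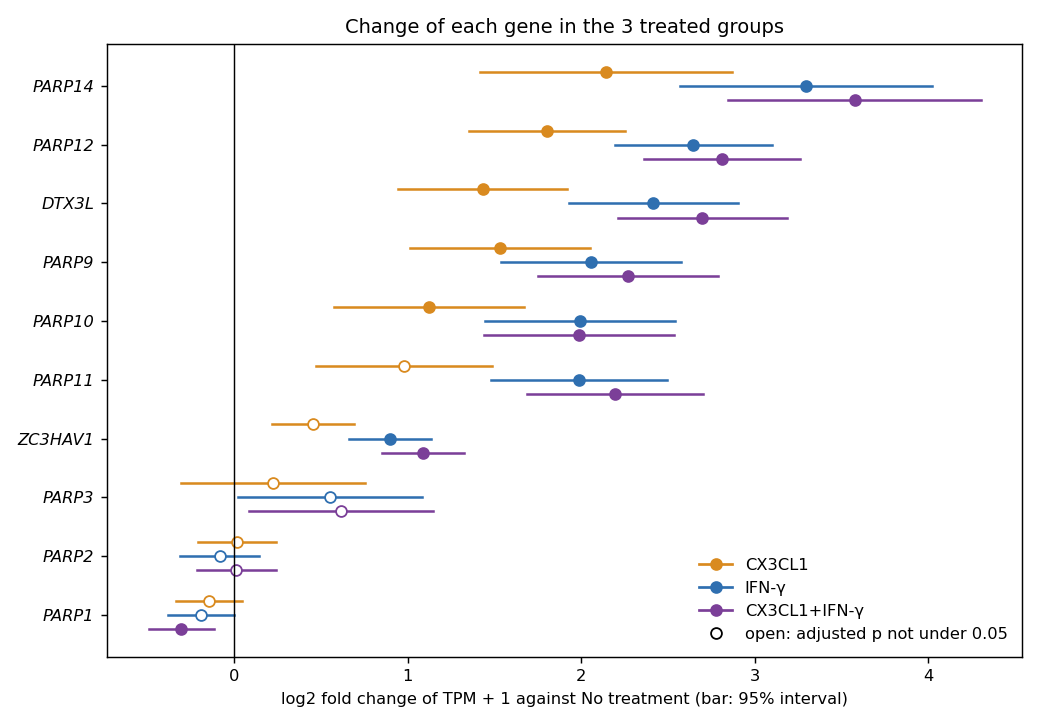
Log2 fold change of TPM + 1 against No treatment (horizontal axis) of the 10 genes (rows) with CX3CL1, IFN-γ and CX3CL1+IFN-γ, with 95% intervals from limma; open points have an adjusted p not under 0.05. PARP14 has the largest values in all 3 groups, from 2.14 to 3.58, while PARP2 lies at 0.02, -0.08 and 0.01.

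In cells given both agents, the 7 interferon-linked genes were again called higher than in untreated cells, where 8.21% of all genes tested were called higher, and they kept their calls in all 14 alternatives. All 7 also separated the groups upward, which held for 18.6% of the genes tested. The log2 fold changes ran from 1.09 (± 0.11 SE) for ZC3HAV1 to 3.58 (± 0.34 SE) for PARP14, with a median of 2.27 beside 0.02 over all genes tested. PARP14 was at 76.4, 78.7 and 140.2 TPM, PARP9 at 86.5, 117 and 149 TPM and DTX3L at 81.6, 93.0 and 129 TPM.

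PARP1 was called lower in this comparison, the only member called lower in any of the 7 comparisons when no block was fitted, where 3.72% of all genes tested were called lower. It was at 104, 109 and 103 TPM with CX3CL1+IFN-γ against 121, 145 and 126 TPM in untreated cells, a ratio of 0.807 between the means. The groups did not overlap, which held in this direction for 12.6% of the genes tested, and the log2 fold change was -0.30 (± 0.09 SE, adjusted p = 0.0391 by limma). The call was lost in 7 of 14 alternatives. These included the fits without untreated replicate 2 (log2 fold change -0.23, adjusted p = 0.177 by limma), without untreated replicate 3 (adjusted p = 0.0803 by limma) and without CX3CL1+IFN-γ replicate 1, 2 or 3 (adjusted p = 0.0919, 0.0626 and 0.141 by limma). Since each library adds up to the same TPM, fewer PARP1 transcripts and more of other transcripts cannot be told apart here. PARP3 had a log2 fold change of 0.61 (± 0.24 SE, adjusted p = 0.135 by limma), and it passed the threshold without CX3CL1+IFN-γ replicate 2 (0.85, adjusted p = 0.0414 by limma). PARP2 had one of 0.01.

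Adding CX3CL1 to IFN-γ changed none of the 10 genes by the test. Against IFN-γ alone, 0 of 10 were called by limma and 0 had an unadjusted p under 0.05, where 0.345% of all genes tested were called higher and 0.0168% lower. The largest log2 fold changes were those of DTX3L, 0.28 (95% interval -0.21 to 0.77), and PARP14, 0.28 (95% interval -0.45 to 1.01). For PARP12 the value was 0.17 (95% interval -0.28 to 0.62) and for PARP10 -0.01 (95% interval -0.55 to 0.54). Without CX3CL1+IFN-γ replicate 3 the values of PARP14, PARP11 and PARP12 were just below 0. A rise of PARP14 by 1 on the log2 scale therefore lies inside its interval. Replicate numbers paired these 2 groups most closely. Within each of the 3 numbers the CX3CL1+IFN-γ library was the higher for PARP9, DTX3L, PARP14, PARP11, PARP12, ZC3HAV1 and PARP2 and the lower for PARP1. The share of all genes tested that kept 1 direction in all 3 numbers is not given here, so no conclusion is drawn from these directions. Blocking on the replicate number again gave 0 by limma, where 0.749% of all genes tested were called higher and 0.0505% lower. The smallest adjusted p of a member was then 0.682 (limma). PARP1 was lower in every CX3CL1+IFN-γ library than in every IFN-γ library, at a log2 fold change of -0.11 (95% interval -0.30 to 0.08), and 7.74% of the genes tested separated the groups in that direction.

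The CX3CL1 effect was thus estimated without and with IFN-γ, and the interaction is the difference between these estimates. Since both are on the log2 scale, the interaction compares fold changes and not differences in TPM. It was negative for all 7 interferon-linked genes, with a median of -1.15 beside 0.01 over all genes tested, but passed the threshold for 0 of 10 genes by limma, as for 0 of all 11878 (0.0%), of which 273 had an unadjusted p under 0.05. PARP12 had an interaction of -1.63 (95% interval -2.27 to -0.997, adjusted p = 0.105 by limma), PARP14 one of -1.87 (95% interval -2.89 to -0.84, adjusted p = 0.376 by limma) and PARP9 one of -1.32 (95% interval -2.05 to -0.58, adjusted p = 0.389 by limma). DTX3L was at -1.15 (95% interval -1.84 to -0.46), PARP10 at -1.13 (95% interval -1.90 to -0.35) and PARP11 at -0.77 (95% interval -1.49 to -0.05). ZC3HAV1, at -0.26 (95% interval -0.60 to 0.07), and the 3 repair genes had intervals that include 0. In this fit, which has no block, the interaction failed the correction for all 10 genes. With the replicate number as a block, PARP12 and PARP14 were called lower in the interaction (adjusted p = 0.0137 and 0.0354 by limma). So were 0.413% of all genes tested. Whether the numbers pair all groups that enter the interaction is not settled, as described below.

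**Figure D4:**
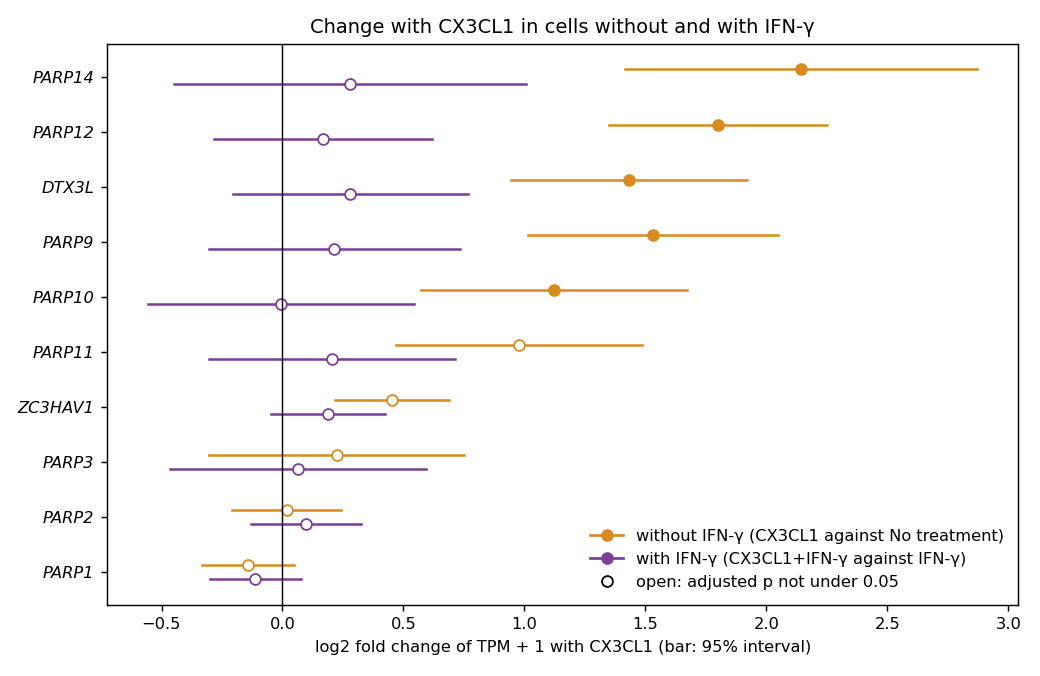
Log2 fold change of TPM + 1 with CX3CL1 (horizontal axis) of the 10 genes (rows), in cells without IFN-γ (CX3CL1 against No treatment) and with IFN-γ (CX3CL1+IFN-γ against IFN-γ), with 95% intervals from limma; open points have an adjusted p not under 0.05. Without IFN-γ the values of the interferon-linked genes run from 0.45 to 2.14, and with IFN-γ from -0.01 to 0.28.

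Each agent was given at a single dose, and the levels they reached are set side by side at those doses. The mean TPM with CX3CL1 was 73.1% of the mean with IFN-γ for ZC3HAV1 and 68.0% for PARP9. It was 55.2% for PARP12, 55.1% for PARP10, 48.5% for DTX3L, 47.6% for PARP11 and 41.9% for PARP14. IFN-γ against CX3CL1 gave 4 genes called higher, where 3.52% of all genes tested were called higher. They were PARP11 (log2 fold change 1.01 ± 0.23 SE, adjusted p = 0.0303 by limma), DTX3L (0.98 ± 0.22 SE, adjusted p = 0.0275), PARP12 (0.85 ± 0.21 SE, adjusted p = 0.0387) and ZC3HAV1 (0.44 ± 0.11 SE, adjusted p = 0.0391). The largest difference, 1.15 for PARP14, did not pass (± 0.34 SE, adjusted p = 0.0717 by limma), nor did PARP10 (0.87, adjusted p = 0.0708) and PARP9 (0.52, adjusted p = 0.231). The other 6 interferon-linked genes separated the groups upward, as 18.3% of the genes tested did. The groups overlapped for PARP9, where the highest CX3CL1 library had 81.9 TPM and the lowest IFN-γ library 75.1 TPM.

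These 4 calls were not kept in every fit that left out a library. The count was 0 without CX3CL1 replicate 1, IFN-γ replicate 2 or IFN-γ replicate 3, and 1 without CX3CL1 replicate 2, the library that differs most from its group. Over all genes, the number called higher also fell in these fits, from 418 to 361, 259, 136 and 261. The log2 fold changes in the 6 such fits were 0.738 to 1.161 for DTX3L and 0.779 to 1.197 for PARP11. They were 0.663 to 1.003 for PARP12 and 0.352 to 0.535 for ZC3HAV1. Blocking on the replicate number gave 7 called genes of the 10, where 10.3% of all genes tested were called higher: PARP14 (adjusted p = 0.00813 by limma), PARP10 (0.0185) and PARP3 (0.0293) joined the 4, and PARP9 did not (0.0741).

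CX3CL1+IFN-γ against CX3CL1 gave 5 genes called higher, where 3.76% of all genes tested were called higher. They were PARP14 (log2 fold change 1.43 ± 0.34 SE, adjusted p = 0.0288 by limma), DTX3L (1.26 ± 0.22 SE, adjusted p = 0.00566), PARP11 (1.22 ± 0.23 SE, adjusted p = 0.00948), PARP12 (1.01 ± 0.21 SE, adjusted p = 0.0136) and ZC3HAV1 (0.63 ± 0.11 SE, adjusted p = 0.00478). All 7 interferon-linked genes separated these groups upward, which held for 14.0% of the genes tested, and PARP1 separated them downward, which held for 5.48%. PARP10 (0.87, adjusted p = 0.0765 by limma) and PARP9 (0.74, adjusted p = 0.111) were not called. The count was 3 without CX3CL1 replicate 1 or CX3CL1+IFN-γ replicate 3, where PARP14 and PARP12 lost their calls, and PARP14 also lost its call without CX3CL1 replicate 2. Blocking on the replicate number gave 8 called genes, where 8.71% of all genes tested were called higher, with PARP9 (adjusted p = 0.0222 by limma), PARP10 (0.0189) and PARP3 (0.0137) added.

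The balance between DTX3L and PARP9 differed between the groups with and without IFN-γ. The ratio of DTX3L to PARP9 TPM was 0.558 to 0.675 in untreated cells and 0.559 to 0.634 with CX3CL1, and those ranges overlap. It was 0.766 to 0.871 with IFN-γ and 0.797 to 0.944 with CX3CL1+IFN-γ, above every library without IFN-γ. This ratio was noticed in the data, so it is given without a test. The part that the exon bases shared by the 2 genes have in it was not tested. The ratio of PARP14 to PARP9 was 0.268 to 0.342 in untreated cells, 0.439 to 0.544 with CX3CL1, 0.689 to 0.988 with IFN-γ and 0.675 to 0.938 with CX3CL1+IFN-γ.

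**Figure D5:**
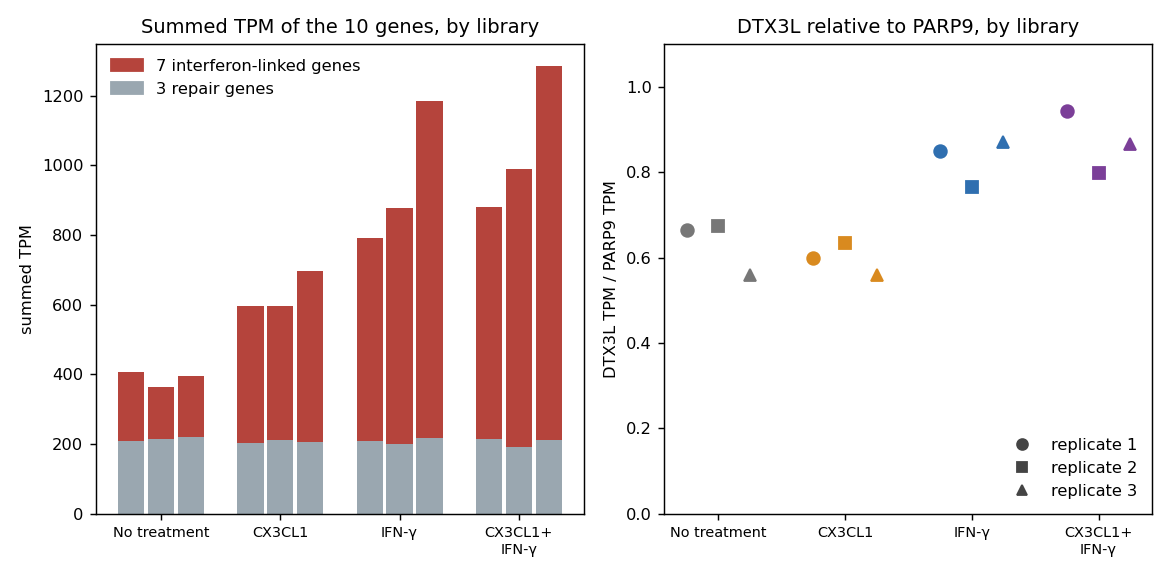
Left, summed TPM (vertical axis) of the 3 repair and the 7 interferon-linked genes, stacked, in each of the 12 libraries, 1 bar per library in the order of replicates 1 to 3 within a group; right, the ratio of DTX3L to PARP9 TPM in the same libraries. The repair sum stays between 193 and 219 TPM, and the ratio lies at 0.675 or below without IFN-γ and at 0.766 or above with it.

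The pattern over libraries was compared between genes by the root mean square difference of log2(TPM + 1), each gene centred on its mean over the 12 libraries, among the 10754 genes that averaged 1 TPM or more. Since all profiles share the same libraries, the values are a description. The genes most like PARP9 were DDX58, which encodes the RNA sensor RIG-I (0.16), SP100, a nuclear body protein (0.16), and TOR3A (0.17). DDX58 was at 23.6, 78.1, 103 and 121 TPM with No treatment, CX3CL1, IFN-γ and both, near the PARP9 means of 23.4, 68.9, 101 and 118 TPM. The genes most like DTX3L were the helicase gene DDX60 (0.14), TRIM21, which encodes an antibody-binding ubiquitin ligase (0.14), and PARP12 (0.17). DTX3L and PARP12 were the most alike of all pairs of members. Those most like PARP14 were IRGM2, an immunity-related GTPase (0.17), IFIT1, which binds viral RNA (0.18), and GBP9, a guanylate-binding protein (0.20). For PARP1, which varied little (root mean square 0.13), they were the folate enzyme gene MTHFD1 (0.05), SUCLG1 of the citric acid cycle (0.06) and MPRIP (0.06), and MTHFD1 means were 143, 136, 125 and 118 TPM in the same order of groups.

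Genes of the same pathways were counted from fixed lists. Of 7 other PARP family genes, none was called with CX3CL1, 1 with IFN-γ and 2 with both. PARP8, a mono-ADP-ribosyltransferase, was at 7.48, 6.60 and 5.90 TPM without treatment, at 10.2, 12.9 and 15.0 TPM with IFN-γ and at 14.5, 13.0 and 15.3 TPM with both, with log2 fold changes of 0.83 (± 0.14 SE, adjusted p = 0.00246 by limma) and 1.00 (± 0.14 SE, adjusted p = 0.000361 by limma). PARP4, the PARP of vault particles, was called higher with both (0.53 ± 0.16 SE, adjusted p = 0.0458 by limma), although its groups overlapped. The median log2 fold change of the list was 0.04, 0.10 and 0.15 with CX3CL1, IFN-γ and both, beside -0.02, 0.03 and 0.02 over all genes tested.

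TRIM25, the ubiquitin ligase that ZC3HAV1 needs for its antiviral activity, was the only 1 of 6 ZC3HAV1 cofactors called in these comparisons. It was at 63.1, 53.5 and 59.2 TPM without treatment, at 109, 99.7 and 126 TPM with CX3CL1, at 133, 144 and 181 TPM with IFN-γ and at 138, 156 and 198 TPM with both. The treated groups did not overlap the untreated one, and the log2 fold changes were 0.91 (± 0.15 SE, adjusted p = 0.00455 by limma), 1.35 (± 0.15 SE, adjusted p = 6.69e-05 by limma) and 1.46 (± 0.15 SE, adjusted p = 2.32e-05 by limma). These exceed the values of ZC3HAV1 itself, 0.45, 0.90 and 1.09, but the difference between the 2 genes was not tested.

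Of 11 genes of interferon signaling outside the family, 4 were called higher with CX3CL1 (STAT2, IRF9, ISG15 and GBP2) and 7 with IFN-γ, when IRF1, IRF7 and IFNB1 were added, and none lower. IFNB1 was near the floor, below 1 TPM in every library, with means of 0.0593 TPM without treatment and 0.813 TPM with IFN-γ. The median log2 fold change of the 11 genes was 0.58 with CX3CL1 and 1.12 with IFN-γ, beside -0.02 and 0.03 over all genes tested. STAT2, a transcription factor of the interferon response, was at 26.9, 16.1 and 24.6 TPM without treatment, at 59.5, 48.1 and 77.2 TPM with CX3CL1 and at 123, 129.5 and 181 TPM with IFN-γ. The 3 groups did not overlap, and the log2 fold change of STAT2 was 1.42 (± 0.22 SE, adjusted p = 0.00288 by limma) with CX3CL1 and 2.64 (± 0.22 SE, adjusted p = 7.64e-06 by limma) with IFN-γ. GBP2, a guanylate-binding protein gene, had log2 fold changes of 2.82 (± 0.36 SE, adjusted p = 0.00103 by limma) and 5.44 (± 0.36 SE, adjusted p = 2.89e-06 by limma). IRF1, an early transcription factor of the IFN-γ response, had a log2 fold change of 0.53 with CX3CL1 (adjusted p = 0.778 by limma) and of 2.31 with IFN-γ (adjusted p = 0.000152 by limma). The receptor genes IFNGR1 and IFNGR2 and the kinase genes JAK1 and JAK2 were not called in these comparisons.

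Enzymes that remove ADP-ribose, such as PARG, did not pass the test in any comparison, with 0 of 7 tested called by limma and log2 fold changes between -0.25 and 0.30 against untreated cells, and none had an unadjusted p under 0.05 there. Of 7 strand-break repair partners of PARP1 and PARP2, 0 were called by limma with CX3CL1 or with IFN-γ alone, and 1, the chromatin remodeler gene CHD1L, was called higher with both agents (log2 fold change 0.37 ± 0.09 SE, adjusted p = 0.0127 by limma). Of 7 tested genes of NAD+ supply, NMNAT2 alone was called, with both (0.59 ± 0.10 SE, adjusted p = 0.0019 by limma), from 0.786 to 1.70 TPM in the means. Of 4 other Deltex ligases, 2 were tested and none was called.

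Other markers moved with the treatments. The summed level of 8 epithelial markers was 51.2 to 64.7 TPM in untreated cells, 33.6 to 44.4 TPM with CX3CL1, 35.7 to 41.8 TPM with IFN-γ and 24.9 to 33.2 TPM with both, nearly all of it from KRT18 and KRT20. The summed level of 6 mesenchymal markers was 4989 to 6213 TPM in untreated cells, 4246 to 4993 TPM with CX3CL1, 3658 to 4678 TPM with IFN-γ and 2728 to 4075 TPM with both. The markers tested were 2 epithelial, 6 mesenchymal and 2 leukocyte genes. Of these, 1 was called lower with CX3CL1, 2 with IFN-γ and 5 with both, and no leukocyte marker was called. Over all genes tested, 0.168%, 1.94% and 3.72% were called lower in these comparisons. The means of PARP1 were likewise highest in untreated cells and lowest with both agents, and the part of the marker changes in its values was not tested.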

How the data were processed

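RNA was isolated from CT26 cells and strand-specific mRNA libraries were sequenced. The authors used STAR 2.7.3a for alignment to mm10 and for gene counts, and DESeq2 1.22.1 for their own tests. The table they deposited holds TPM, and the authors’ values add up to 1000000 in every library. How counts became TPM and the gene annotation are not given in the sources used here, and the gene counts were not analysed here. The depth reached by each library is not known from the TPM, so no counting error was computed.

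Groups and replicate numbers were taken from the library labels. Linear models of log2(TPM + 1) were fitted by limma 3.58.1 under R 4.3.3, and variances were moderated along a trend with intensity. The 11878 symbols averaging 0.2 TPM or more entered the fit, which held the 12 libraries together and had no block. Benjamini-Hochberg adjustment ran within each of 7 comparisons, and calls needed an adjusted p under 0.05. The scripts were checked on simulated data. With 3 libraries per group, each p-value sets a difference against the spread between replicates. That spread was estimated for each gene over the 12 libraries and moderated toward the trend. Without a block it also holds any difference between replicate numbers. Python 3.11.15 with pandas 2.3.3 prepared the tables and matplotlib 3.10.9 the plots. Positions were read from GENCODE vM21 on GRCm38, the assembly of mm10, and promoter sequences from RefSeq on GRCm38.p6.

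The 10 genes and all gene lists were chosen with earlier results of these data known. Results of some listed genes, and the counts that need them, are not reported here. The genes named are these 10, the list genes that a result turns on, and for PARP1, PARP9, DTX3L and PARP14 the 3 genes with the most similar profile. Epithelial, mesenchymal and leukocyte markers served as a check of the cells. The fit was repeated with the pseudocount at 0.1, without the filter, with the filter at 1 TPM, after median-ratio scaling or quantile normalization, on the compared groups alone, with the trend off, with a replicate block, and without each library in turn. The labels give all groups the same replicate numbers. Deviations of same-numbered libraries from their group means correlated across genes above 0.1 in every pair for IFN-γ with No treatment (lowest 0.220), CX3CL1 with IFN-γ (0.226), CX3CL1 with CX3CL1+IFN-γ (0.351) and IFN-γ with CX3CL1+IFN-γ (0.630), so the numbers were taken to pair these groups. The pairing rests on these correlations, since the sources used here do not say what a number shares.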

Additional observations from a re-analysis of the deposited data

How the results depend on the processing

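Over the 7 comparisons, 942 of 1030 fits of a single gene under an alternative kept the direction and the side of the threshold, 47 lost a call, 18 gained one and 23 changed the sign of a difference that was not called in either fit. For PARP2, quantile normalization gave a log2 difference of -0.0142 with CX3CL1 and -0.0691 with both, and median-ratio scaling gave -0.0243 with both. The other 20 came from leaving out a library. Such fits ranged from -0.0767 to 0.0778 for PARP2 and from -0.011 to 0.3887 for PARP3 with CX3CL1, from -0.057 to 0.0731 for PARP2 with both, and from -0.0591 to 0.0887 for PARP2 with both against CX3CL1. For both against IFN-γ they ranged from -0.1077 to 0.2937 for PARP3, from -0.0031 to 0.6509 for PARP14, from -0.2304 to 0.1907 for PARP10, from -0.0198 to 0.4356 for PARP11 and from -0.0238 to 0.3578 for PARP12. In the interaction they ranged from -0.0458 to 0.0857 for PARP1 and from -0.3311 to 0.0736 for PARP3. The number of genes called higher with IFN-γ against untreated cells was 7 in each fit that left out a library. For the other counts such fits gave 4 to 5 with CX3CL1 against untreated cells, 7 to 8 higher and 0 to 1 lower with CX3CL1+IFN-γ against untreated cells, 3 to 6 with CX3CL1+IFN-γ against CX3CL1 and 0 to 4 with IFN-γ against CX3CL1. The count lower with CX3CL1+IFN-γ against untreated cells, PARP1, was 0 with no intensity trend and 0 with only the libraries compared. IFN-γ against CX3CL1 gave 0 members without the filter on low TPM, 1 with median-ratio scaling and 1 with only the libraries compared, in place of 4. The causes were not tested.

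The fit blocked on the replicate number called 8 members for CX3CL1+IFN-γ against CX3CL1 and 7 for IFN-γ against CX3CL1. Same-numbered libraries of No treatment and CX3CL1 correlated at 0.387, 0.00472 and 0.301 for numbers 1, 2 and 3. Those of No treatment and CX3CL1+IFN-γ correlated at 0.312, 0.447 and 0.0324. Each of these groups was taken to pair with IFN-γ by its numbers. In both pairs of groups here, 2 of 3 numbers correlated best with their own, so these correlations alone do not settle the pairing. There the block added PARP11 (adjusted p = 0.0275 by limma) and ZC3HAV1 (0.0353) with CX3CL1, PARP3 with CX3CL1+IFN-γ (0.00043), and PARP12 (0.0137) and PARP14 (0.0354) as lower in the interaction, 2 in place of 0. With the block 2.92% of all genes tested were called higher with CX3CL1, 13.3% with CX3CL1+IFN-γ and 0.413% lower in the interaction. Beyond these and the blocked calls given in the report, the block changed no call of the 10 genes.

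Over all genes, the block raised the number called from 232 to 455 with CX3CL1, from 932 to 1929 with IFN-γ, from 1417 to 2464 with both, from 43 to 95 for both against IFN-γ, from 558 to 1369 for both against CX3CL1, from 544 to 1601 for IFN-γ against CX3CL1 and from 0 to 52 in the interaction. With only the libraries compared, both against IFN-γ gave 20, both against CX3CL1 344 and IFN-γ against CX3CL1 252. Without the filter, both against IFN-γ gave 28. Quantile normalization gave 556 higher and 536 lower genes with IFN-γ in place of 702 and 230, and 797 and 888 with both in place of 975 and 442. Against CX3CL1 it gave 278 and 236 with IFN-γ in place of 418 and 126, and 349 and 228 with both in place of 447 and 111. Median-ratio scaling gave 642 and 349 with IFN-γ, and against CX3CL1 305 and 240 with IFN-γ and 360 and 185 with both. Both scalings moved the median of all genes by less than 0.1 on the log2 scale.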

Other observations

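The rise of the interferon-linked genes was smallest in replicate number 1. Between the untreated and the IFN-γ library of the same number, the log2 difference of PARP14 was 2.40, 3.59 and 3.89 for numbers 1, 2 and 3. For DTX3L it was 1.76, 2.58 and 2.91, for PARP11 1.32, 2.07 and 2.57 and for ZC3HAV1 0.62, 1.01 and 1.06. Number 1 had the smallest difference for all 7 interferon-linked genes with IFN-γ, as it had for 52.8% of the 702 genes called higher and 46.4% of all genes tested. With CX3CL1, number 1 was smallest for 6 of the 7, with PARP10 as the exception (1.09, 0.66 and 1.62), beside 62.7% of the 212 genes called higher. Whether the numbers pair the CX3CL1 and untreated libraries is not settled, as said above. PARP14 was at 9.34 TPM in untreated replicate 1, the highest untreated library, and at 53.7 TPM in IFN-γ replicate 1, the lowest with IFN-γ. This was noticed in the data, and no cause was tested.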
